A study of Mus musculus with 4 samples.

Results

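The nuclear genes of the 5 oxidative phosphorylation complexes were compared between LT-HSC, the long-term haematopoietic stem cells of mouse bone marrow, and ST-HSC, the short-term ones. Members were taken by symbol: every gene whose probe sets carry a single annotated symbol starting with Nduf, Uqcr, Cox4 to Cox8 or Atp5, or equal to Sdha, Sdhb, Sdhc or Sdhd. This gave 90 genes out of 18193 with a single symbol on the array. Each gene was read on its brightest probe set by mean over the 4 arrays. Of the 90 members, 86 lay above the filter on dim probe sets and were tested. Complex I had 34 members, complex II 4, complex III 8, complex IV 19 and complex V 17. The other 8 were Ndufaf genes, which encode assembly factors of complex I. Ndufa4 and Ndufa4l2 were placed with complex IV, where the Ndufa4 protein is known to sit.

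RNA was measured on 4 Affymetrix whole-genome mouse arrays, 2 of LT-HSC (replicates 1 and 2) and 2 of ST-HSC (replicates 2 and 3). Both groups were sorted as lineage-negative, cKit+, Sca1+ and CD135- cells, LT-HSC as CD34- and ST-HSC as CD34+. All mice were without the Mx-Cre transgene, and their background was C57BL/6. Each had been injected 7 times with poly(I:C), a double-stranded RNA that induces interferon. Both LT-HSC arrays and ST-HSC replicate 2 came from mice aged 7.5 weeks, sampled 4 weeks after the last injection. ST-HSC replicate 3 came from mice aged 8.5 weeks, sampled 3 weeks after it. The labels do not say whether the LT-HSC replicates were separate animals or pools, so p-values measure the spread between these arrays, which may be technical. For both ST-HSC samples the label for tissue reads LT-HSC with a CD34+ gate, and their titles were followed.

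The arrays held transcripts that the gates were meant to remove. All 8 plasma cell markers were higher in LT-HSC, with a summed normalised intensity of 54720 and 54741 in LT-HSC, compared with 1768 and 3280 in ST-HSC. The 7 neutrophil markers summed to 3641 and 481 in LT-HSC, against 3606 in ST-HSC replicate 2 and 52086 in ST-HSC replicate 3. All 9 cycling markers were lower in LT-HSC, with sums of 3602 and 4440 on the LT-HSC arrays, against 15014 and 16153 on the ST-HSC arrays. Among 5 markers of B cells 4 were higher in LT-HSC, with sums of 4305 and 4837 in LT-HSC, compared with 228 and 344 in ST-HSC. The 4 named erythroid markers stayed dim, with sums of 58.3 and 28.4 on the LT-HSC arrays, against 54.1 and 151 on the ST-HSC arrays. Cd34, the sorting marker, read 23.9 and 20.5 in LT-HSC, compared with 906 and 1171 in ST-HSC, in the order of the gates. Of 5 stem cell surface markers named on the array, Cd34 and Kit were lower in LT-HSC, while Flt3 (CD135), Slamf1 and Cd48 did not pass. Slamf1 and Cd48 were not part of the stated gates, and Ly6a, the gene of Sca1, was not named by a single symbol. The 5 summed to 874 and 793 on the LT-HSC arrays, against 2481 and 3154 on the ST-HSC arrays. That sum mixes genes gated in, gated out and not gated. The part of these other cells and of cycling in the values below was not tested. In such bulk samples, fewer cells of a type and less RNA per cell cannot be told apart.

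Oxidative phosphorylation makes ATP in the inner mitochondrial membrane. Complex I takes electrons from NADH and complex II from succinate, complex III passes them from ubiquinol to cytochrome c, and complex IV hands them to oxygen. Complexes I, III and IV pump protons, and complex V, the ATP synthase, lets the protons back to make ATP. A few core subunits are encoded in mitochondrial DNA and the rest in the nucleus. Long-term stem cells are known for quiescence and for leaning on glycolysis more than on respiration, and respiration is known to become more important as they differentiate.

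Many nuclear genes of these complexes are known to be controlled by the transcription factor NRF1 and by ETS factors such as GABP. Of the 90 members, 74 had a promoter in the RefSeq table of GRCm38.p6, and the 250 bases before the start were searched on both strands. The NRF1 core GCGCATGC was present in 8 of 74 member promoters (10.8%), against 2.32% of 27025 promoters of the same length in the table. The ETS core CCGGAAG was present in 13 (17.6%), against 7.05% of all. The YY1 core AAGATGGC was found in 0 of the 74, against 1.59% of all. No member promoter had matches of 2 different motifs that share bases. The stretches around the first NRF1 core in the 8 promoters are shown because NRF1 is a known regulator of these genes and its core had the highest ratio of member share to share in all promoters among the 3 motifs searched. ETS had the wider gap in percentage points. Capitals mark the core on either strand, and a run of 10 capitals is the core matching on both strands.
Atp5g2 (complex V, chr15:102671071-102671100, minus strand): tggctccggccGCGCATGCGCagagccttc
Atp5k (complex V, chr5:108434431-108434460, minus strand): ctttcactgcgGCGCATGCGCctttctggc
Atp5l (complex V, chr9:44920964-44920992, minus strand): aaccaataacGCATGCGCatttcccccac
Cox6a1 (complex IV, chr5:115349102-115349131, minus strand): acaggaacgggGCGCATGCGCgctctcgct
Ndufa6 (complex I, chr15:82354356-82354385, minus strand): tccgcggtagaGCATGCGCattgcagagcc
Ndufa8 (complex I, chr2:36049339-36049357, minus strand): tcgctggagacGCATGCGC
Ndufaf4 (assembly factor, chr4:24897959-24897988, plus strand): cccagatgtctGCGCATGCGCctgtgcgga
Sdhb (complex II, chr4:140961206-140961235, plus strand): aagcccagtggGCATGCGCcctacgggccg

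These 8 genes had log2 differences (LT-HSC minus ST-HSC) from -0.94 for Atp5l to 0.21 for Ndufaf4, and none of the 8 passed the test in limma. The 2 members that rose in LT-HSC, Ndufa1 and Ndufv3, had none of the 3 motifs in the 250 bases before their starts. Lacking them was the usual state, as 19 of the 74 member promoters had any of the motifs. Ndufaf6, the member that fell, was not among the 74. The bases of Ndufa1 and Ndufv3 are given here because the values of these genes set them apart from the other members.
Ndufa1 (chrX:37191239-37191488, minus strand): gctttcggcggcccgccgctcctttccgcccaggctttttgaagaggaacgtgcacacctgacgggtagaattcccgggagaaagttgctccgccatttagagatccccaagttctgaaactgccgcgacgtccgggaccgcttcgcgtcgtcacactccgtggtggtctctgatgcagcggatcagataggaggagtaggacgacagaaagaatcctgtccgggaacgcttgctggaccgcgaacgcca
Ndufv3 (chr17:31519865-31520114, plus strand): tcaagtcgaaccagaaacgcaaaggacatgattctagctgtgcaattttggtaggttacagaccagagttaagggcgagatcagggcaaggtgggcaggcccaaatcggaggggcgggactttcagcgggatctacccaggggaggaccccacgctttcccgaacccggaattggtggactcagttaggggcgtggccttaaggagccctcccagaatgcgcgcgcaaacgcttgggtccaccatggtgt
A match is a description of letters, and the absence of one says only that these letters were not in this window.

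Of the 86 tested members, 2 rose in LT-HSC, 1 fell and 83 did not pass the threshold (limma, adjusted p under 0.05 over all tested probe sets). That is 3.49% of the members, against 14.3% of the 12832 genes tested, of which 7.92% were higher and 6.41% lower in LT-HSC. At an unadjusted p under 0.05, 9 members were higher and 10 lower, against 15.1% and 18% of all genes tested. The median difference of the members was -0.18 on the log2 scale, with quartiles of -0.46 and 0.13, against a median of -0.08 over all genes tested. Of the 86, 57 differed by less than 0.5 in either direction and 11 by more than 1 (12.8%, against 23.5% of all genes tested). Both LT-HSC arrays lay above both ST-HSC arrays in 20 members and below them in 28, while 38 overlapped. So 55.8% of the members had groups that did not overlap, against 64.3% of all genes tested (28.6% above and 35.7% below). Fewer members than the background were called, and the test of that difference was not made. The split of 2 higher and 1 lower became 5 and 2 with no normalisation between arrays, and 3 and 4 with the arrays centred on their medians.

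**Figure D1:**
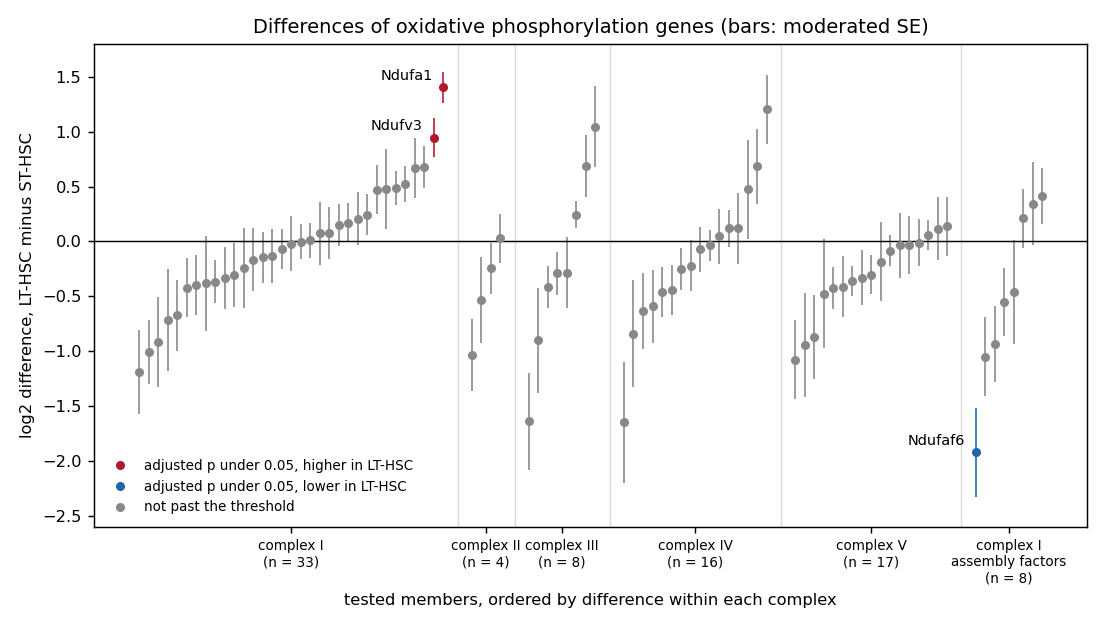
Log2 difference (LT-HSC minus ST-HSC, y axis) of the 86 tested members with moderated standard errors, grouped by complex and ordered within each; colour marks calls at an adjusted p under 0.05. Most points lie between -1 and 1, and 3 members are called, Ndufa1 and Ndufv3 higher and Ndufaf6 lower in LT-HSC.

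The member with the smallest p was Ndufa1, an accessory subunit in the membrane arm of complex I that is needed for its assembly. Ndufa1 had normalised intensities of 6106 and 6387 in LT-HSC, compared with 2291 and 2408 in ST-HSC. Replicates of each group lay close together and the groups were far apart. The difference was 1.40 on the log2 scale (SE 0.14, 2.65-fold, limma adjusted p = 0.00243). The call held in both comparisons that left out an ST-HSC array, and ended without LT-HSC replicate 1 (1.46, adjusted p = 0.0859) or 2 (1.38, adjusted p = 0.0896).

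Ndufv3, an accessory subunit of the NADH-oxidising tip of complex I, had normalised intensities of 2457 and 2732 on the LT-HSC arrays, against 1327 and 1346 on the ST-HSC arrays. The groups did not overlap. The difference was 0.95 (SE 0.18, 1.93-fold, limma adjusted p = 0.0223). Leaving out LT-HSC replicate 1 (adjusted p = 0.282) or 2 (adjusted p = 0.269) ended this call, as did a fit without an intensity trend in the spread (adjusted p = 0.0759).

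The remaining call was Ndufaf6, an assembly factor of complex I, which fell in LT-HSC. It was dim, with normalised intensities of 14.1 and 18.0 in LT-HSC, compared with 68.9 and 158 in ST-HSC. All 4 values lay in the order of the groups, with ST-HSC replicate 3 the highest. The difference was -1.92 (SE 0.41, 3.80-fold higher in ST-HSC, limma adjusted p = 0.0302), on a scale that understates folds at this level. The call ended when LT-HSC replicate 1 (adjusted p = 0.196) or 2 (adjusted p = 0.138) was left out. Each of the 3 called members had 1 probe set, so none could be set against a second probe set of its gene.

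**Figure D2:**
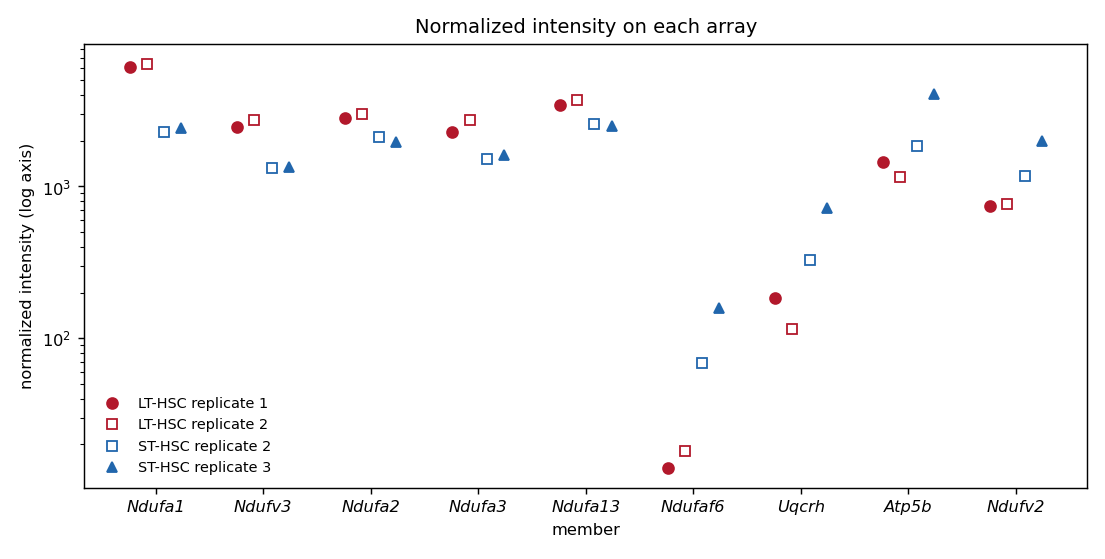
Normalised intensity (log axis) on each of the 4 arrays for the 3 called members and 6 further members. The 6 were chosen from the members called in one direction with either ST-HSC array left out. Uqcr10, Cox8c and Atp5a1 also met this and are not drawn, and in Atp5a1 ST-HSC replicate 2 was the highest. Red marks LT-HSC and blue ST-HSC. In Ndufa1, Ndufv3, Ndufa2, Ndufa3 and Ndufa13 both red points lie above both blue points, and in Ndufaf6, Uqcrh, Atp5b and Ndufv2 both lie below, with ST-HSC replicate 3 the highest.

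Both members that rose belong to complex I, where 6.06% of the tested subunits were called, against 14.3% of all genes tested. Of its 33 tested subunits 2 rose, 0 fell and 31 did not pass in limma (6 higher and 2 lower at an unadjusted p under 0.05), with a median of -0.02, which was 0.16 with no normalisation between arrays and 0.27 with the arrays centred. Among its 6 members of the catalytic core 0 passed (0 higher and 1 lower unadjusted) and the median was -0.38. Among its 27 tested accessory subunits 2 passed (7.41%) and the median was 0.00 at 2 decimals. Ndufv2, a core subunit of the NADH-oxidising tip, read 744 and 764 on the LT-HSC arrays, against 1174 and 1999 on the ST-HSC arrays (-1.01, SE 0.29, adjusted p = 0.0689). Ndufs1, the largest iron-sulphur core subunit, read 264 and 222 in LT-HSC, compared with 314 and 703 in ST-HSC (-0.92, SE 0.41, adjusted p = 0.185). In Ndufv2 and Ndufs1 both LT-HSC arrays were lower, and ST-HSC replicate 3 stood well above replicate 2. Ndufs3, a core subunit of the ubiquinone-reducing arm, ran the other way, at 1213 and 1328 on the LT-HSC arrays, against 823 and 1011 on the ST-HSC arrays (0.47, SE 0.22, adjusted p = 0.21).

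Several small accessory subunits of complex I lay above ST-HSC with little spread, although none of the following passed. Ndufa3 read 2288 and 2755 in LT-HSC, compared with 1520 and 1606 in ST-HSC (0.68, SE 0.19, adjusted p = 0.0613). Ndufa2 read 2844 and 3015 on the LT-HSC arrays, against 2108 and 1966 on the ST-HSC arrays (0.52, SE 0.16, adjusted p = 0.0862). Ndufa13, also known as the cell death regulator GRIM-19, read 3435 and 3726 in LT-HSC, compared with 2592 and 2512 in ST-HSC (0.48, SE 0.15, adjusted p = 0.0863). In these genes both LT-HSC arrays were above both ST-HSC arrays. At the other end Ndufb1 read 24.5 and 33.4 on the LT-HSC arrays, against 59.8 and 121 on the ST-HSC arrays (-1.19, SE 0.38, adjusted p = 0.0901). Ndufb1 was the accessory subunit with the lowest difference, and its groups did not overlap either. Ndufb4 was too dim to test.

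All 4 subunits of complex II, succinate dehydrogenase, were tested and 0 passed in limma (0 higher and 1 lower unadjusted), with a median of -0.39. Sdhd, a membrane anchor, read 177 and 163 in LT-HSC, compared with 291 and 457 in ST-HSC (-1.03, SE 0.33, adjusted p = 0.0862). Sdhc, the other membrane anchor, read 129 and 148 on the LT-HSC arrays, against 143 and 297 on the ST-HSC arrays (-0.54, SE 0.40, adjusted p = 0.403), so its groups overlapped. The catalytic subunits lay nearer to 0. Sdha, the flavoprotein, read 1480 and 1169 in LT-HSC, compared with 1753 and 1395 in ST-HSC (-0.25, SE 0.23, adjusted p = 0.507). Sdhb, the iron-sulphur subunit, read 1474 and 1738 on the LT-HSC arrays, against 1376 and 1793 on the ST-HSC arrays (0.03, SE 0.22, adjusted p = 0.947). The groups overlapped in both.

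All 8 members of complex III were tested and 0 passed in limma (2 higher and 1 lower unadjusted). Cyc1, another subunit of this complex, lies outside the symbol rule and is given below. The median of the 8 was -0.29, against -0.10 with no normalisation and 0.00 at 2 decimals with the arrays centred. The ends of the complex lay far apart. Uqcrh, the hinge protein that binds cytochrome c1, read 185 and 114 in LT-HSC, compared with 327 and 725 in ST-HSC (-1.64, SE 0.44, adjusted p = 0.0567). Uqcr10, a small subunit, read 696 and 686 on the LT-HSC arrays, against 225 and 471 on the ST-HSC arrays (1.05, SE 0.37, adjusted p = 0.115). On these brightest probe sets the LT-HSC pair lay below ST-HSC in Uqcrh and above it in Uqcr10. ST-HSC replicate 3 was the higher of its pair in both. On a second probe set of Uqcrh the groups overlapped, at 215 and 164 in LT-HSC, compared with 170 and 377 in ST-HSC (-0.41, limma adjusted p = 0.546). A dim second tested probe set of Uqcr10 lay at -0.44 (limma adjusted p = 0.451). Uqcrb, the ubiquinone-binding subunit, read 6718 and 6916 in LT-HSC, compared with 6106 and 5412 in ST-HSC (0.25, SE 0.12, adjusted p = 0.233). The core proteins Uqcrc1 and Uqcrc2 and the Rieske protein Uqcrfs1 had differences of -0.90, -0.42 and -0.29, and in each both LT-HSC arrays lay below both ST-HSC arrays. Uqcrc1 had 551 and 472 in LT-HSC, against 561 in ST-HSC replicate 2 and 1659 in ST-HSC replicate 3, so only the last array stood clearly apart.

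Of the 19 complex IV genes 16 were tested and 0 passed in limma (1 higher and 1 lower unadjusted), with a median of -0.15, which was 0.08 with no normalisation and 0.18 with the arrays centred. The 11 ubiquitous subunits had a median of -0.25 and a range from -0.84 for Cox8a to 0.12 for Cox7a2l. Cox4i1, the common isoform of subunit 4, read 3182 and 3391 on the LT-HSC arrays, against 2869 and 4148 on the ST-HSC arrays (-0.07, SE 0.20, adjusted p = 0.845). Cox8a read 130 and 121 in LT-HSC, compared with 138 and 402 in ST-HSC (-0.84, SE 0.49, adjusted p = 0.288). Both ST-HSC replicate 3 values were the highest of the 4 arrays. Dimmer probe sets of Cox8a lay at 0.07 and -0.50 (limma adjusted p = 0.909 and 0.325). Cox7a2l, known for joining complexes III and IV into supercomplexes, read 5581 and 5090 on the LT-HSC arrays, against 5677 and 4247 on the ST-HSC arrays (0.12, SE 0.17, adjusted p = 0.68), and its groups overlapped.

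The tissue-restricted isoforms of complex IV were dim. Of 8 such genes 5 were tested, and Cox7a1, Cox7b2 and Cox8b lay below the filter on dim probe sets. Cox8c, known as a testis isoform, read 177 and 152 in LT-HSC, compared with 52.3 and 73.4 in ST-HSC (1.20, SE 0.32, adjusted p = 0.0541). Cox4i2, an isoform induced by low oxygen in lung and other tissues, read 110 and 70.4 on the LT-HSC arrays, against 42.4 and 56.0 on the ST-HSC arrays (0.68, SE 0.34, adjusted p = 0.224). On these probe sets both genes had both LT-HSC arrays above both ST-HSC arrays, and neither passed. On a dim second probe set of Cox8c the groups overlapped (0.53, limma adjusted p = 0.405). The ubiquitous partners of these genes, Cox8a and Cox4i1, had differences of -0.84 and -0.07 on their brightest probe sets.

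Cox6b2, known as a testis isoform, read 19.1 and 14.2 in LT-HSC, compared with 40.3 and 170 in ST-HSC (-1.65, SE 0.55, adjusted p = 0.0997). Its ubiquitous partner Cox6b1 read 2592 and 2985 on the LT-HSC arrays, against 2875 and 3818 on the ST-HSC arrays (-0.25, SE 0.19, adjusted p = 0.422). Cox6a2, the isoform of heart and skeletal muscle, read 22.9 and 36.5 in LT-HSC, compared with 22.2 and 29.2 in ST-HSC (0.12, SE 0.32, adjusted p = 0.831). A second probe set of Cox6a2, of nearly the same mean, was higher in LT-HSC, at 50.4 and 47.6 on the LT-HSC arrays, against 5.01 and 6.36 on the ST-HSC arrays (1.58, SE 0.30, adjusted p = 0.0208). Cox6a1, the common form, had a difference of -0.46 (SE 0.23, adjusted p = 0.22). A second probe set of Cox6a1 lay at 0.30 (limma adjusted p = 0.519). Cox7a2, the common form beside the untested Cox7a1, read 2076 and 2686 in LT-HSC, compared with 1853 and 2814 in ST-HSC (0.05, SE 0.25, adjusted p = 0.916).

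All 17 members of complex V were tested and 0 passed in limma (0 higher and 2 lower unadjusted), with a median of -0.30. Its size and sign depended on the scaling, and the median was -0.08 with no normalisation between arrays and 0.02 with the arrays centred. Of the 17, 14 (82.4%) had a difference below 0, against 54.1% of all genes tested, and the 14 became 10 with no normalisation and 6 with the arrays centred. In 7 both LT-HSC arrays lay below both ST-HSC arrays, a share near the 35.7% of all genes. The subunits of the catalytic F1 head had a median of -0.36. Atp5b, the catalytic beta subunit, read 1440 and 1147 on the LT-HSC arrays, against 1850 and 4042 on the ST-HSC arrays (-1.08, SE 0.36, adjusted p = 0.0987). Atp5a1, the alpha subunit, read 4678 and 4286 in LT-HSC, compared with 6152 and 5402 in ST-HSC (-0.36, SE 0.14, adjusted p = 0.133). In both the groups did not overlap, but in Atp5a1 the higher ST-HSC array was replicate 2. Atp5e, the epsilon subunit, had the highest difference of the complex (0.14, SE 0.27, adjusted p = 0.767).

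The ring that turns with the proton flow is built from subunit c, which 3 genes encode with the same mature protein. Atp5g1 read 153 and 272 on the LT-HSC arrays, against 180 and 466 on the ST-HSC arrays (-0.48, SE 0.50, adjusted p = 0.553). Atp5g2 read 560 and 639 in LT-HSC, compared with 664 and 967 in ST-HSC (-0.41, SE 0.28, adjusted p = 0.359). Atp5g3 read 4042 and 4330 on the LT-HSC arrays, against 4666 and 4225 on the ST-HSC arrays (-0.09, SE 0.14, adjusted p = 0.715). None of these passed, and the groups overlapped in Atp5g1 and Atp5g3. Among the 4 subunits of the peripheral stalk the difference ran from -0.87 for Atp5pb to 0.06 for Atp5h, and among the 5 small membrane subunits from -0.94 for Atp5l to 0.12 for Atp5md.

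Of the 8 Ndufaf assembly factors 0 rose, 1 fell and 7 did not pass (0 higher and 3 lower unadjusted), with a median of -0.51. The share called was 12.5%, against 14.3% of all genes tested. Besides Ndufaf6, Ndufaf5, an enzyme that modifies a core subunit, read 27.0 and 18.0 in LT-HSC, compared with 46.9 and 84.0 in ST-HSC (-1.05, SE 0.36, adjusted p = 0.103). Ndufaf1, a factor of the membrane arm, read 109 and 148 on the LT-HSC arrays, against 207 and 320 on the ST-HSC arrays (-0.94, SE 0.35, adjusted p = 0.125). In both the LT-HSC arrays lay below both ST-HSC arrays. Ndufaf8 had the highest difference, at 559 and 659 in LT-HSC, compared with 463 and 440 in ST-HSC (0.42, SE 0.26, adjusted p = 0.317). Ndufaf4 lay at 0.21 (adjusted p = 0.636), while a second probe set of it was lower in LT-HSC, at 102 and 123 on the LT-HSC arrays, against 276 and 425 on the ST-HSC arrays (-1.49, SE 0.33, adjusted p = 0.0357).

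The 90 genes had 179 probe sets with a single symbol, of which 166 were tested. Of these 3 were higher and 4 lower in LT-HSC, against 12.2% of 27022 probe sets called in either direction. Of 50 members with more than 1 tested probe set, 18 had probe sets with differences of opposite sign. In Ndufb8, Ndufs8 and Ndufaf4 a probe set other than the brightest was called lower while the brightest lay above 0. Ndufs8, a core subunit, had a difference of 0.17 on its brightest probe set (adjusted p = 0.55) and -1.20 on another (511 and 691 in LT-HSC, compared with 1117 and 1731 in ST-HSC, adjusted p = 0.0463). Ndufb8 had 0.15 on its brightest probe set (adjusted p = 0.634) and -1.19 on a dim one (15.0 and 18.5 on the LT-HSC arrays, against 54.2 and 63.3 on the ST-HSC arrays, adjusted p = 0.0489). Of the 90 brightest probe sets, 23 carry the suffix that Affymetrix uses for probes shared with other transcripts. Near-identical copies of these genes could add to such values.

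The ST-HSC arrays differed from each other over these genes. ST-HSC replicate 3 read above replicate 2 in 73 of 86 tested members, by a median of 0.52, against a median of 0.03 over all genes tested. LT-HSC replicate 2 read above replicate 1 in 64 of 86, by a median of 0.13, against 0.01 over all genes. The median SD between replicates over the members was 0.13 in LT-HSC and 0.37 in ST-HSC. The gap between the ST-HSC arrays ran through every complex, with medians of 0.42 in complex I, 0.50 in complex II, 0.62 in complex III, 0.46 in complex IV and 0.56 in complex V. It was 1.54 in Uqcrc1 and 1.44 in Cox8a, and -0.42 in Cox7a2l. ST-HSC replicate 3 is also the array with the high neutrophil markers and the other age and interval, and these cannot be told apart.

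**Figure D3:**
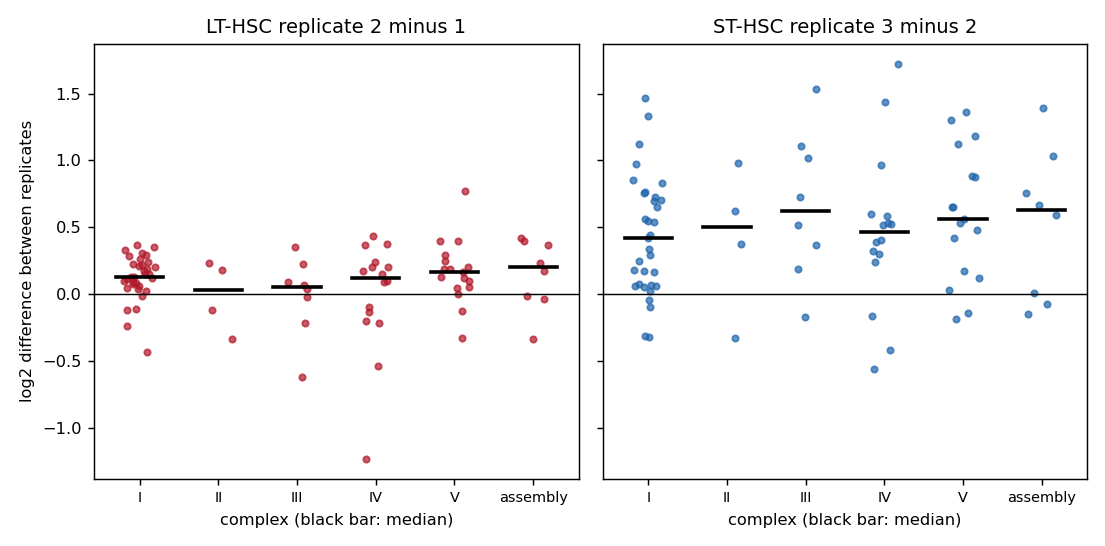
Log2 difference between the replicates of each group (y axis) for the tested members of each complex and the assembly factors (x axis), LT-HSC on the left and ST-HSC on the right, with the median as a black bar. Medians of LT-HSC lie between 0.03 and 0.20, and those of ST-HSC between 0.42 and 0.63.

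The counts of called members turned on which ST-HSC array was kept. Without ST-HSC replicate 2, 10 members were higher in LT-HSC and 43 lower, or 61.6% of the 86, against 37.1% of all genes tested, and the median was -0.32. Without ST-HSC replicate 3, 12 were higher and 5 lower, or 19.8%, against 27.6% of all genes, and the median was 0.03. In both cases the lone ST-HSC array was assumed to vary as the LT-HSC pair did. Leaving out LT-HSC replicate 1 or 2, limma called 0 members (2 higher and 4 lower, or 3 higher and 2 lower, at an unadjusted p under 0.05), against 1.96% or 1.99% of all genes.

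Called higher with either ST-HSC array left out were 7 members, namely Ndufa1, Ndufa2, Ndufa3, Ndufa13, Ndufv3, Uqcr10 and Cox8c. Called lower with either left out were 5, namely Ndufaf6, Ndufv2, Uqcrh, Atp5a1 and Atp5b. Atp5j2, a small membrane subunit of complex V, was called lower without ST-HSC replicate 2 (-0.46) and higher without replicate 3 (0.41), on 1833 and 1998 in LT-HSC, compared with 1445 and 2666 in ST-HSC. Its LT-HSC values lay between the ST-HSC values. Both fits took their spread from the same LT-HSC pair, so passing both is not independent evidence. The share of all genes called in the same direction in both fits was not counted. Of the 86 members, 55 kept the sign of their difference with each array left out in turn, 35 of them below 0 and 20 above. The same count over all genes was not made. By complex, the median without ST-HSC replicate 3 was 0.18 in complex I, -0.23 in complex II, -0.03 in complex III, -0.07 in complex IV and below 0.01 in size in complex V.

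**Figure D4:**
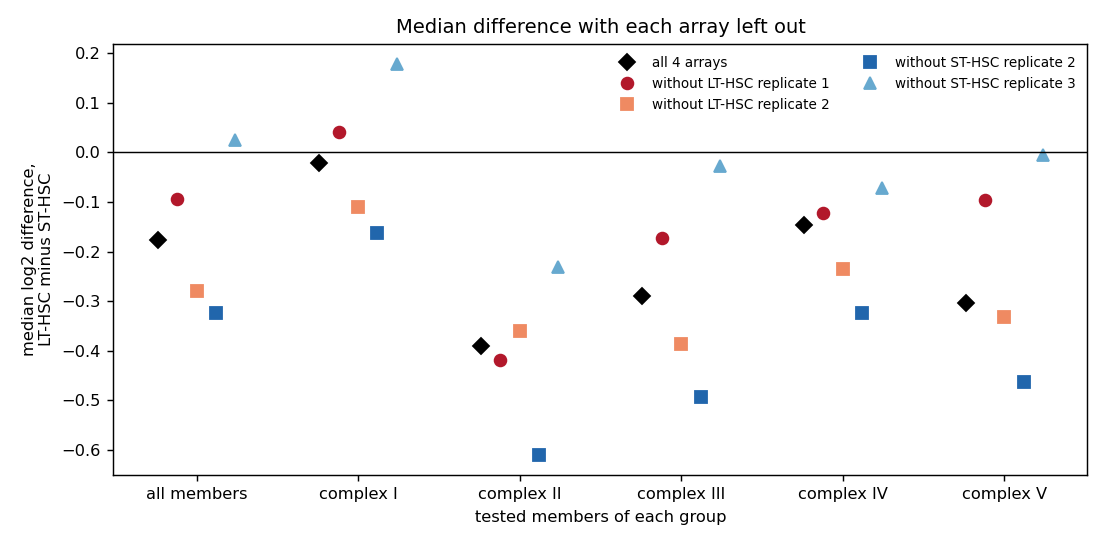
Median log2 difference (LT-HSC minus ST-HSC, y axis) over all tested members and over each complex, with all 4 arrays and with each array left out. The median over all members runs from -0.32 without ST-HSC replicate 2 to 0.03 without ST-HSC replicate 3, and in each complex these arrays mark the lowest and the highest value.

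Genes around the complexes were read from lists of the same pathway. Of the electron carrier cytochrome c and further subunits outside the symbol rule, 3 of 4 were tested and 1 fell (33.3%, against 14.3% of all genes tested). This was Atpif1, the inhibitor that keeps ATP synthase from running backwards, at 1020 and 1324 on the LT-HSC arrays, against 2153 and 3137 on the ST-HSC arrays (-1.15, SE 0.25, adjusted p = 0.0334). Cycs, cytochrome c, and Cyc1, the catalytic cytochrome of complex III, had differences of -0.29 and -0.39 and did not pass. The 1 mitochondrially encoded subunit named on the array, ND5 of complex I, read 2951 and 2825 in LT-HSC, compared with 2161 and 2664 in ST-HSC (0.27, SE 0.18, adjusted p = 0.356).

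Of 32 assembly factors of complexes II to V, 1 rose, 0 fell and 31 did not pass, with a median of -0.22. The share called was 3.12%, against 14.3% of all genes tested. Sdhaf1, needed to insert iron-sulphur clusters into complex II, read 581 and 608 on the LT-HSC arrays, against 280 and 243 on the ST-HSC arrays (1.14, SE 0.27, adjusted p = 0.0395). Of 7 further complex I assembly factors 1 rose and 6 did not pass, with a median of -0.32. Their share called, 14.3%, was that of all genes tested. Foxred1, a flavoprotein of this assembly, read 311 and 224 in LT-HSC, compared with 76.7 and 80.5 in ST-HSC (1.57, SE 0.32, adjusted p = 0.0261). Both genes had groups that did not overlap.

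The 17 tested genes of the tricarboxylic acid cycle, which feeds NADH and succinate to the complexes, gave 0 calls in limma (1 higher and 5 lower unadjusted). Their median was -0.51, which was -0.31 with no normalisation and -0.21 with the arrays centred. In 13 of 17 both LT-HSC arrays lay below both ST-HSC arrays, against 35.7% of all genes tested. In this list ST-HSC replicate 3 and 2 differed by a median of 0.02. Of 11 tested genes in a list of pyruvate entry and its brake 0 rose and 1 fell, against 14.3% of all genes called in either direction. The list joins genes of unlike roles. Beside genes of entry it holds the kinases of the brake, Pdk1 (-0.43) and Pdk3 (-1.06), and the lactate dehydrogenase genes Ldha and Ldhb (-0.94). All 11 differences were below 0, against 54.1% of all genes, and the median was -0.74. All 11 were also below 0 with no normalisation (median -0.69) and with the arrays centred (median -0.58). The count below 0 was 9 of 11 without LT-HSC replicate 1 and 10 of 11 without ST-HSC replicate 3. It was 12 of 12 without LT-HSC replicate 2 and 11 of 11 without ST-HSC replicate 2. The gene that fell was Ldha, lactate dehydrogenase A, at 3828 and 4158 on the LT-HSC arrays, against 7014 and 6387 on the ST-HSC arrays (-0.74, SE 0.13, adjusted p = 0.018). With no normalisation between arrays Ldha was not called (-0.47, adjusted p = 0.115), nor was it after median centring (-0.37, adjusted p = 0.468).

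Of 7 tested carriers and pores of the mitochondrial membranes 1 rose and 2 fell (42.9% called, against 14.3% of all genes tested). Slc25a4, the ADP/ATP carrier of heart and muscle, read 802 and 719 in LT-HSC, compared with 1462 and 1636 in ST-HSC (-1.01, SE 0.22, adjusted p = 0.0306). Vdac3, a pore of the outer membrane, read 1073 and 1083 on the LT-HSC arrays, against 1923 and 2364 on the ST-HSC arrays (-0.97, SE 0.20, adjusted p = 0.0292). Vdac1, another such pore, was higher on its brightest probe set, at 2336 and 2548 in LT-HSC, compared with 1190 and 1096 in ST-HSC (1.08, SE 0.19, adjusted p = 0.0166). With its probe sets averaged, Vdac1 lay at -0.24 (adjusted p = 0.49).

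Of 18 genes of mitochondrial biogenesis and mitochondrial DNA expression 0 rose, 2 fell and 16 did not pass, with a median of -0.13. The share called was 11.1%, against 14.3% of all genes tested. Gabpb1, the beta subunit of the ETS factor GABP, read 83.7 and 145 on the LT-HSC arrays, against 283 and 458 on the ST-HSC arrays (-1.57, SE 0.39, adjusted p = 0.0454). Mterf1a, a mitochondrial transcription termination factor, read 8.99 and 12.9 in LT-HSC, compared with 43.3 and 88.2 in ST-HSC (-1.55, SE 0.37, adjusted p = 0.0425). Of 11 genes of ubiquinone synthesis 0 passed in limma (1 higher and 1 lower unadjusted), with a median of -0.26. All 9 calls named from these lists were lost when either LT-HSC array was left out. With the arrays centred on medians the calls of Atpif1 (-0.80, adjusted p = 0.148), Vdac3 (-0.65, adjusted p = 0.237) and Slc25a4 (-0.76, adjusted p = 0.179) also ended, and without ST-HSC replicate 3 that of Mterf1a (-1.17, adjusted p = 0.127). Without an intensity trend 7 of the 9 calls ended, all but those of Foxred1 and Mterf1a (adjusted p from 0.0513 to 0.131 for the 7). Averaging the probe sets of each gene ended the calls of Atpif1, Slc25a4 and Gabpb1, beside that of Vdac1.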

How the data were processed

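RNA of sorted cells was measured on 4 Affymetrix arrays. Each deposited array gives a linear intensity for every probe set. Trizol extraction was followed by 2 rounds of amplification and by biotin labelling, per the labels' protocols. Summarising software and scaling: not given in the sources used here. Of 45101 probe sets 64 controls were left out. Array medians spanned 0.33 on the log2(intensity + 16) scale, so the arrays were quantile normalized. Printed normalised intensities are these values on the linear scale. The 27022 probe sets whose mean exceeded the 40th percentile were tested. LT-HSC and ST-HSC were compared in limma 3.58.1 (R 4.3.3; lmFit, eBayes with an intensity trend; 2 residual and 4.84 prior degrees of freedom), with Benjamini-Hochberg adjustment over all tested probe sets and a threshold of 0.05. The pseudocount of 16 understates folds of dim probe sets. An exact permutation test of 2 against 2 cannot go below 0.33, and the number of arrays limits the precision. The fit was tested on simulated data.

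The platform annotation gave 1 symbol to 34945 probe sets, several to 932 and none to 9160. All 90 members matched RefSeq (GRCm38.p6) by Entrez identifier. 10 probe sets with several symbols were not used. The members, lists and motifs were chosen with earlier results of these data known. Named by rule were members past the threshold, the lowest, highest and brightest of each complex, isoform groups, the Sdh genes, members with opposed probe sets and the called genes of other lists. The other members named were chosen after their values were seen. Alternatives were other normalizations, pseudocounts, filters, spread models and probe set rules, and each array left out. One part of the genotype shared by all mice is not reported here.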

Additional observations from a re-analysis of the deposited data

How the results depend on the processing

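No paired analysis was possible because the groups share only 1 replicate number. The count of members higher in LT-HSC was 2 and the count lower was 1. With no normalization between arrays they were 5 and 2, and with arrays centred on their medians 3 and 4. Without an intensity trend they were 1 and 1, and with probe sets averaged per gene 3 and 2. With the arrays centred, the median difference was 0.12 over all members, 0.27 in complex I, 0.18 in complex IV, 0.02 in complex V and 0.00 at 2 decimals in complex III, all turned from below 0. With no normalization it was above 0 over all members (0.02) and in complexes I (0.16) and IV (0.08), and -0.08 in complex V. The sign of these medians thus depends on the scaling, while that of complex II did not turn (-0.36 and -0.26). With each array left out in turn, the count higher ran from 0 to 12 and the count lower from 0 to 43. The median of complex II ran from -0.61 to -0.23. Called values never changed sign in 433 comparisons with alternatives of the members named by rule, where 7 calls were lost and 30 gained. Of the remaining 396, 21 changed sign with no call on either side. Atp5j2 was not named by rule and is not in these counts. It lay at -0.04 with all 4 arrays, at -0.46 without ST-HSC replicate 2 and at 0.41 without ST-HSC replicate 3. Vdac1 lay at -0.24 with its probe sets averaged, against 1.08 on its brightest. For the 9 called genes of the other lists, 40 of 125 comparisons lost the call. Of these and the turn of Vdac1, 18 came from leaving out an LT-HSC array, 7 from no intensity trend, 4 each from centring and from averaging probe sets, 3 each from no normalization and from no filter (Sdhaf1, Gabpb1 and Mterf1a), and 1 each from a pseudocount of 64 and from leaving out ST-HSC replicate 3 (both Mterf1a). The cause of these changes was not tested.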
